A study of Homo sapiens with 12 samples.

Results

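High glucose on its own was compared with the albumin control in 6 of 12 RNA-sequencing libraries from neutrophil-like HL-60 cells, over 9751 of the 10465 entries of the deposited expression table. HL-60 is a human promyelocytic leukaemia cell line that can be induced to resemble neutrophils, and every library came from this 1 line. The sources used here do not give the agent of induction. The glucose group held 3 libraries of cells kept for 24 h in 30 mmol/L D-glucose, and the BSA group held 3 libraries of cells kept for 24 h in 0.05 ug/mL BSA, bovine serum albumin, labelled as the control. The other 6 libraries, used here as a second setting, were 3 with 0.05 ug/mL AGEs (advanced glycation end products, proteins modified by sugars) and 3 with AGEs and D-glucose together, and glucose against none within them is called the AGEs setting. The labels give BSA in the BSA group alone, and not in the glucose group or in either group with AGEs. In glucose against BSA, added glucose and missing BSA therefore cannot be told apart. No group is labelled with another solute at a matching concentration, so glucose and osmotic strength cannot be told apart either. The genes were all those with at least 1 FPKM (fragments per kilobase of transcript, scaled to the mapped fragments) in at least 3 of the 12 libraries. This filter took no account of groups. Separate cultures are not stated for libraries that share a group, and the p-values describe the spread between these samples alone, which may be technical.

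Values were analysed as log2(FPKM + 1), and a fold change on that scale understates the change of low genes. A gene was called where limma, fitted to all 12 libraries, gave an adjusted p under 0.05 over the 9751 genes. FPKM summed to 220444 to 233854 per library, and the number of reads behind them is unknown. Library glucose 3, the column D3, received a limma weight of 0.418, against 1.21 for glucose 1 and 1.82 for glucose 2. Library AGEs 1 was the only one with a lower weight, 0.181, and the others lay between 0.797 and 1.49. Glucose 3 differed from the other 2 glucose libraries by a median of 0.139 on the log2 scale, where all libraries but it and AGEs 1 lay between 0.0779 and 0.135. Results that lean on glucose 3 are given with and without it.

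The cells carried neutrophil transcripts along with those of other granulocytes. Of 15 neutrophil markers, 10 passed the filter. The summed level of the 11 with an entry was 976 to 1034 FPKM with BSA and 933 to 1059 FPKM with glucose. Of the 10, 5 had a log2 difference above 0 and 5 below. The groups did not overlap for 4 of them, all lower with glucose, 40% beside 9.03% of all genes on that side. ALPL, CXCR1, FCGR3B and MMP9, which mark mature neutrophils, were among those not analysed here. CLC, the protein that forms Charcot-Leyden crystals in eosinophils, stood at 2199 ± 117 FPKM with BSA and 2357 ± 119 FPKM with glucose (SD, n = 3). The eosinophil and basophil markers as a group, mostly CLC, summed to 2199 to 2481 FPKM with BSA and to 2402 to 2638 FPKM with glucose. Of the 9 measured, 8 had a log2 difference above 0 and 1 below. Their median was 0.18, at 0.08 without glucose 2. Of 15 monocyte and macrophage markers only 4 passed the filter, 1 with a log2 difference above 0 and 3 below. The 5 with an entry summed to 15.9 to 17.4 FPKM with BSA, mostly CSF1R, and 10.3 to 12.8 FPKM with glucose. In RNA from mixed cells, fewer cells of a type and less RNA per cell cannot be told apart.

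Glucose enters white blood cells through facilitative transporters, is phosphorylated by hexokinases and feeds glycolysis, on which neutrophils depend for most of their ATP. Sugar phosphates are sensed by the transcription factor MondoA with its partner MLX, whose best known target is TXNIP, an arrestin-like protein that restrains glucose uptake. High glucose is also an osmotic load, to which cells respond through the transcription factor NFAT5. Folding load in the cytosol is answered through heat shock elements, sterol need through SREBP factors that act with the CCAAT-binding factor NF-Y, and interferon through interferon-stimulated response elements. 

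Sequences are shown for 6 promoters of those groups because heat shock elements, CCAAT boxes and interferon-stimulated response elements are elements that textbooks name for those groups. Each is the 250 bases before a RefSeq transcription start in GRCh38.p14, 5′ to 3′ on the gene's strand, with letters that match an element in capitals. HSPA8 (chr11:123062137-123062386, minus strand), HSP90AB1 (chr6:44247693-44247942, plus strand) and DNAJA1 (chr9:33025023-33025272, plus strand) encode cytosolic chaperones and are marked for the heat shock element.
HSPA8: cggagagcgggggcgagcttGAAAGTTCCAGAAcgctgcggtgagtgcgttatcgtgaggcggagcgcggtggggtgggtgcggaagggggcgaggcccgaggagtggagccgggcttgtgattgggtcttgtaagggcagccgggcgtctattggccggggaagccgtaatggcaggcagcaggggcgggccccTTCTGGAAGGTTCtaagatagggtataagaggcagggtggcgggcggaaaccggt
HSP90AB1: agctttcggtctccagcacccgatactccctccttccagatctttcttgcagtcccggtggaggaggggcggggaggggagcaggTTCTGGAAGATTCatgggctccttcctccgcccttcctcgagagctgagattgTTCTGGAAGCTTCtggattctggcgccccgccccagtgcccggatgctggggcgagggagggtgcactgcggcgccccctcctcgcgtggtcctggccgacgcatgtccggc
DNAJA1: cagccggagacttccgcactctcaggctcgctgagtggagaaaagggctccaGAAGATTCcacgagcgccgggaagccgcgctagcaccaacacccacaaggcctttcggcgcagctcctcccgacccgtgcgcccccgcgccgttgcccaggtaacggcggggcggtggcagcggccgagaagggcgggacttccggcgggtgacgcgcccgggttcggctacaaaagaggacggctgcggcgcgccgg
The capitals mark GAANNTTC or TTCNNGAA, and neighbouring matches overlap in HSPA8 and HSP90AB1. At least 1 such match stood in 10 of 30 windows of the cytosolic chaperone list, 33.3%, and in 9.05% of the 10965 windows that RefSeq gives for 7607 of the genes tested. FDPS (chr1:155308616-155308865, plus strand), a synthase of the cholesterol pathway, is marked for the CCAAT box, CCAAT or ATTGG.
FDPS: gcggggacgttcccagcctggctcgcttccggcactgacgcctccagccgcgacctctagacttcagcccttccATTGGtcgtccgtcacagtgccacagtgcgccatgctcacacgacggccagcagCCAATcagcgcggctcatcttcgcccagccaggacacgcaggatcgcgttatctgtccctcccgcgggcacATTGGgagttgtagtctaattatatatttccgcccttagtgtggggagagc
The CCAAT box stood in 19 of 26 windows of the cholesterol list, 73.1%, and in 33.4% of all windows. It is not particular to sterol genes, and stood in 21 of 24 windows of the endoplasmic reticulum chaperone list, 87.5%, and 9 of 13 of the MondoA list, 69.2%. OAS3 (chr12:112938224-112938473, plus strand), an oligoadenylate synthetase, and IFIT3 (chr10:89327747-89327996, plus strand), an RNA-binding antiviral protein, are marked for the interferon-stimulated response element, GAAA followed by any pair of letters and GAAA again, or its reverse complement.
OAS3: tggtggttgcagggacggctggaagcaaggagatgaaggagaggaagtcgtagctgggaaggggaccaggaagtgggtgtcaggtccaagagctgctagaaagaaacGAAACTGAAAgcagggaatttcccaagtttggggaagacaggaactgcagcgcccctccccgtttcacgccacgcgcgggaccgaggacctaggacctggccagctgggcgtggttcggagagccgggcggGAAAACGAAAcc
IFIT3: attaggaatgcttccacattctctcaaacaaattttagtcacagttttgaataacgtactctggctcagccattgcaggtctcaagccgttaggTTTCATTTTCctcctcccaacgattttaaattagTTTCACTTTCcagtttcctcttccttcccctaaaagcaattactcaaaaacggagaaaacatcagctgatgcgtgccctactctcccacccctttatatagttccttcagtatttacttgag
That element stood in 12 of 22 windows of the interferon list, 54.5%, and in 2.5% of all windows. Both strands were read throughout. Every gene shown was taken in order of unadjusted p within its list from members whose windows hold the element. Members on 1 chromosome were left out of that choice, as were members without a RefSeq window, ACAT2, IFIT2 and GBP2 among them. That the windows shown hold the element follows from that choice. IFIT3 was named in the text for this reason, after its values were seen. A match describes letters in a window and is not evidence of binding in these cells, and the windows come from a later genome build than the expression values.

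After 24 h in high glucose 5 genes were higher and 5 were lower than with BSA at an adjusted p under 0.05, each 0.0513% of the genes tested. The 5 that rose were the DNA glycosylase TDG, the steroid 17-alpha-hydroxylase CYP17A1, the chaperone HSPA8, the mitochondrial scaffold STOML2 and the thiolase ACAT2. The 5 that fell were the pro-apoptotic BMF, the Toll-like receptor homologue CD180, the matrix protein THBS1, the inhibitory Fc receptor FCGR2B and the activating receptor CD300E. Differences were small, with folds of 1.28 to 2.27 in mean FPKM. Leaving out 1 library at a time gave 2 to 5 genes higher and 0 to 11 lower, with 3 higher and 0 lower without BSA 2, 2 and 4 without glucose 3 and 5 and 11 without AGEs 1. Before adjustment 977 genes had p under 0.05, 10% of those tested, where 488 were expected by chance, with 456 higher, 4.68%, and 521 lower, 5.34%. The groups did not overlap for 772 genes higher with glucose, 7.92%, and for 881 lower, 9.03%. Over all genes 49.6% lay above 0 and 50.4% below, with a median log2 difference of -0.0015, which is the background for the gene lists.

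**Figure D1:**
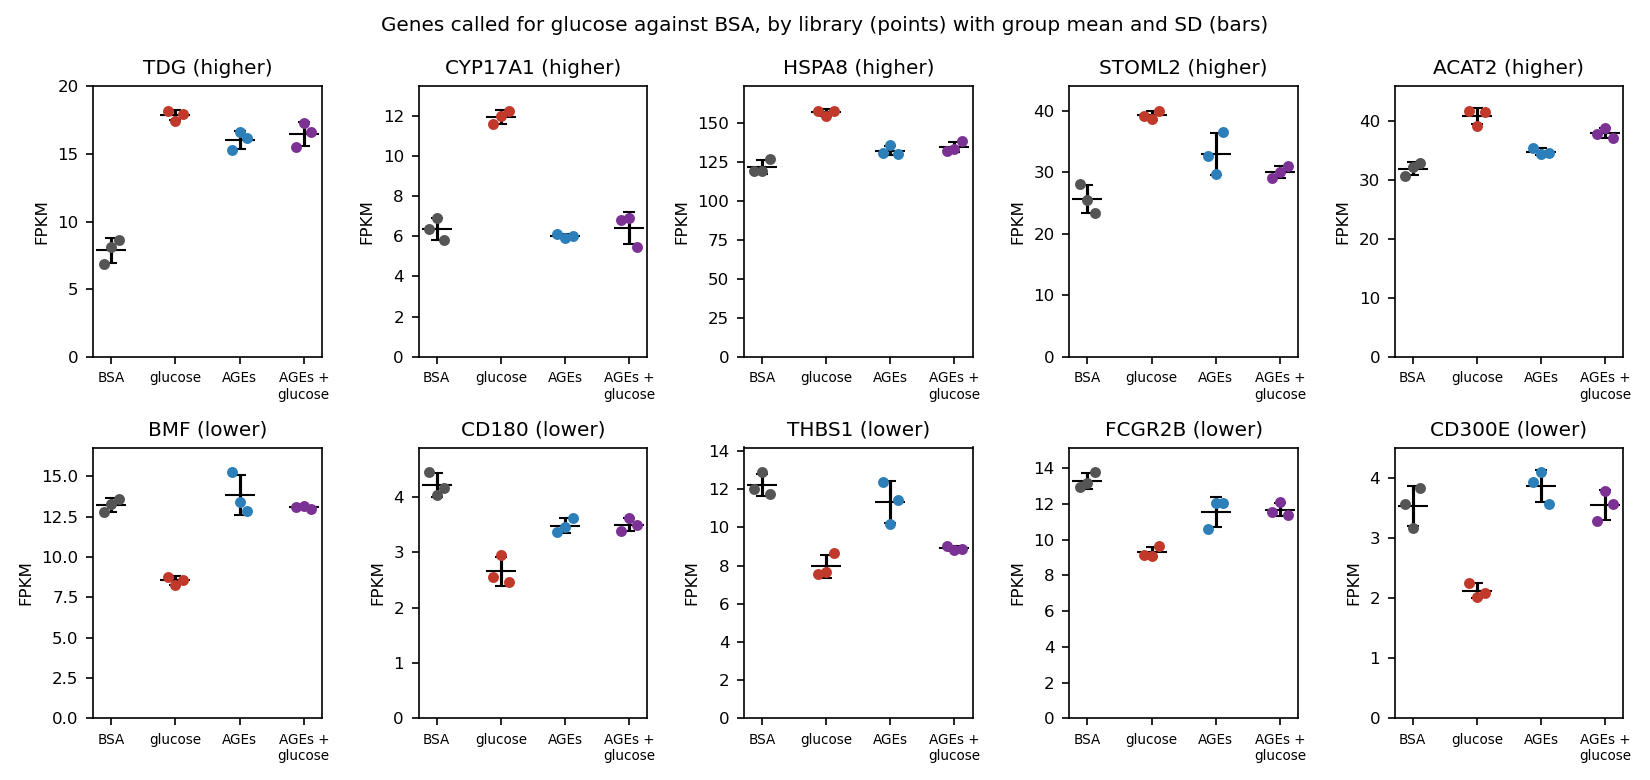
FPKM of the 10 called genes in each of the 12 libraries, 1 panel per gene, with points for libraries and bars for the group mean and SD (n = 3). Glucose stood apart from the other 9 libraries for all 10 genes, and for TDG the 3 BSA libraries also stood apart, at 6.86 to 8.66 FPKM.

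TDG, on chromosome 12, removes thymine and oxidised methylcytosine from DNA at the start of base excision repair. It stood at 6.86, 8.13 and 8.66 FPKM in BSA 1 to 3 and at 18.2, 17.5 and 17.9 FPKM in glucose 1 to 3. Every glucose library lay at more than any BSA library, and glucose 3 sat between the other glucose libraries. The mean rose from 7.89 ± 0.924 to 17.9 ± 0.371 FPKM (SD, n = 3), a log2 fold change of 1.09 ± 0.08 SE with adjusted p = 0.000298. The AGEs libraries, at 15.3, 16.6 and 16.1 FPKM, and the AGEs and glucose libraries, at 15.5, 17.3 and 16.6 FPKM, were also well above BSA. Against BSA the log2 fold change was 0.94 for AGEs (adjusted p = 0.000955) and 0.98 for both together (adjusted p = 0.000917), so the BSA group was the low one. All 3 comparisons share the BSA libraries. Among 23 measured genes of base excision repair, TDG was the 1 called, and FEN1, a flap endonuclease, had the next smallest p, with 25.1 ± 1.9 FPKM against 31.4 ± 2.46 FPKM (adjusted p = 0.311). Of the 23, 17 lay above 0 and the median log2 difference was 0.03, at 0.01 without BSA 1 and 0.06 without glucose 1.

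CYP17A1, on chromosome 10, hydroxylates steroids on the way to androgens and cortisol. It stood at 6.37, 6.91 and 5.8 FPKM with BSA and at 11.6, 12 and 12.3 FPKM with glucose. The other 6 libraries, at 6.11, 5.93 and 6.03 FPKM with AGEs and 6.82, 6.93 and 5.48 FPKM with AGEs and glucose, lay at the BSA level, so the glucose group was the high one. Mean FPKM rose from 6.36 ± 0.553 to 11.9 ± 0.335, with a log2 fold change of 0.82 ± 0.09 SE and an adjusted p of 0.00695. An exon of WBP1L on the opposite strand overlaps it, and the strand setting of the counting is not given in the sources used here, so reads of the pair cannot be told apart. Of 14 measured steroid genes 8 lay above 0 and 6 below, with CYP17A1 the 1 called. HSD17B10, a mitochondrial steroid dehydrogenase, stood at 27.7 ± 3.29 and 36 ± 1.96 FPKM (adjusted p = 0.354).

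HSPA8, on chromosome 11, is the constitutive cytosolic HSP70 that folds new proteins and strips clathrin from vesicles. It was the most abundant of the called genes, at 119.6, 119 and 127 FPKM with BSA and 158, 155 and 158 FPKM with glucose. The other 6 libraries fell between the groups, from 130.4 to 139 FPKM. Mean FPKM rose from 122 ± 4.57 to 157 ± 2, with a log2 fold change of 0.36 ± 0.05 SE and an adjusted p of 0.0253. The gene has 17 annotated pseudogenes by name and hosts 2 annotated snoRNAs in its span, and counting could split reads among them.

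STOML2, on chromosome 9, scaffolds the inner mitochondrial membrane with cardiolipin. It stood at 28, 25.4 and 23.4 FPKM with BSA and 39.1, 38.6 and 40.03 FPKM with glucose, and the 3 glucose libraries were the highest of all 12. Mean FPKM rose from 25.6 ± 2.31 to 39.3 ± 0.7, with a log2 fold change of 0.60 ± 0.08 SE and an adjusted p of 0.0253. PHB, a prohibitin of the same membrane, stood at 15.9 ± 1.16 and 17.7 ± 0.849 FPKM (adjusted p = 0.519). Of 12 measured genes of that membrane's scaffold 8 lay above 0, with a median of 0.07 that was 0.004 without glucose 3 and 0.14 without BSA 1. The call of STOML2 was lost once trends with gene length and GC content were removed, at adjusted p = 0.076 with a log2 difference of 0.53, and under quantile normalization, at 0.0505.

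ACAT2, on chromosome 6, joins acetyl-CoA units in the cytosol at the entry to the mevalonate pathway. It stood at 30.7, 32.1 and 32.8 FPKM with BSA and 41.7, 39.1 and 41.4 FPKM with glucose, again the highest 3 of 12. Mean FPKM rose from 31.9 ± 1.11 to 40.7 ± 1.4, with a log2 fold change of 0.35 ± 0.05 SE and an adjusted p of 0.0464. The BSA libraries were also the lowest 3, below AGEs at 35.4, 34.4 and 34.5 FPKM. Exons of TCP1 and SOD2 on the opposite strand overlap ACAT2, with the same limit on strand.

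BMF, on chromosome 15, is a BH3-only protein that promotes apoptosis when cells detach or the cytoskeleton is disturbed. It stood at 12.8, 13.3 and 13.6 FPKM with BSA and 8.77, 8.26 and 8.61 FPKM with glucose. The AGEs libraries, at 15.3, 13.4 and 12.9 FPKM, and the AGEs and glucose libraries, at 13.1, 13.2 and 13 FPKM, lay at the BSA level. Mean FPKM fell from 13.2 ± 0.428 to 8.55 ± 0.258, with a log2 fold change of -0.58 ± 0.07 SE and an adjusted p of 0.0138. BMF was the 1 called gene among 14 measured genes of the BCL2 family, of which 6 lay above 0 and 8 below. BCL2A1, an anti-apoptotic member common in neutrophils, stood at 87.1 ± 8.44 and 103 ± 5.53 FPKM (adjusted p = 0.483). PMAIP1, which encodes the BH3-only protein NOXA, stood at 82.8, 34.9 and 53.6 FPKM with BSA and 82.4, 81 and 74.7 FPKM with glucose, and its glucose libraries lay within the wide BSA range. An antisense transcript, BMF-AS1, overlaps BMF.

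CD180, on chromosome 5, pairs with MD-1 and modulates the response to lipopolysaccharide. It stood at 4.45, 4.04 and 4.16 FPKM with BSA and 2.56, 2.96 and 2.46 FPKM with glucose. AGEs libraries, at 3.36, 3.46 and 3.63 FPKM, fell between, as did those with AGEs and glucose, at 3.38, 3.62 and 3.49 FPKM. Mean FPKM fell from 4.22 ± 0.209 to 2.66 ± 0.264, with a log2 fold change of -0.51 ± 0.07 SE and an adjusted p of 0.0253. It was the 1 called gene of 16 measured in the Toll-like receptor list, where 13 lay below 0 and the median was -0.12, at -0.07 without glucose 2 and -0.08 without glucose 1. TLR6, which recognises lipopeptides with TLR2, stood at 4.16, 3.73 and 3.75 FPKM with BSA and 1.9, 2.25 and 3.41 FPKM with glucose (adjusted p = 0.26), and glucose 3 was the library nearest to BSA.

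THBS1, on chromosome 15, encodes thrombospondin-1, a secreted matrix protein that binds CD36 and CD47 and activates TGF-beta. It stood at 12, 12.9 and 11.8 FPKM with BSA and 7.55, 7.69 and 8.64 FPKM with glucose. Among the called genes it was the 1 whose glucose libraries were low in both settings, with 12.4, 10.2 and 11.4 FPKM under AGEs and 9.04, 8.8 and 8.87 FPKM under AGEs and glucose. Mean FPKM fell from 12.2 ± 0.592 to 7.96 ± 0.592, with a log2 fold change of -0.56 ± 0.08 SE and an adjusted p of 0.0253. Exons of FSIP1 and of an antisense transcript on the other strand overlap it.

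FCGR2B, on chromosome 1, is the Fc gamma receptor with an inhibitory cytoplasmic motif. It stood at 12.9, 13.1 and 13.8 FPKM with BSA and 9.15, 9.1 and 9.64 FPKM with glucose, the lowest 3 of 12. Mean FPKM fell from 13.3 ± 0.446 to 9.3 ± 0.298, with a log2 fold change of -0.47 ± 0.07 SE and an adjusted p of 0.0253. Its relative FCGR2A was looked up after the call because counting could split reads between them. FCGR2A stood at 9.28 ± 3.79 and 9.43 ± 1.03 FPKM, with BSA 2 far below the other libraries at 4.92 FPKM. Another relative, FCGR2C, was not among the measured entries, so reads shared with it could not be examined. Of 7 measured Fc receptor genes 3 lay above 0 and 4 below, with a median of -0.12, at -0.23 without BSA 2 and -0.07 without glucose 3. FCGRT, the neonatal Fc receptor, stood at 6.63 ± 0.312 and 5.43 ± 0.445 FPKM (adjusted p = 0.383).

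CD300E, on chromosome 17, is an activating receptor of myeloid cells. It stood at 3.58, 3.18 and 3.84 FPKM with BSA and 2.26, 2.02 and 2.1 FPKM with glucose, and the other 6 libraries lay between 3.3 and 4.11 FPKM. Mean FPKM fell from 3.53 ± 0.334 to 2.13 ± 0.126, with a log2 fold change of -0.53 ± 0.08 SE and an adjusted p of 0.04. It was the 1 called gene of 29 measured inhibitory and paired receptors, of which 26 lay below 0, with a median of -0.08 and -0.05 without glucose 3. SIGLEC10, a sialic acid receptor, stood at 30.8 ± 1.01 and 26.4 ± 1.18 FPKM (adjusted p = 0.308). CD300E and THBS1 are abundant in monocytes. The summed level of the monocyte markers, mostly CSF1R with BSA, was lower in every glucose library than in every BSA library, as given above. Their part in these differences was not tested.

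TDG and CYP17A1 stayed called in each of the 12 fits that left out 1 library. BMF was called in 9 of them, HSPA8 and STOML2 in 4, CD180, THBS1 and FCGR2B in 3, and ACAT2 and CD300E in 1. With the 6 glucose and BSA libraries alone in the fit, TDG and CYP17A1 were the 2 of the 10 still called. Without glucose 3, TDG (adjusted p = 0.0035), CYP17A1 (0.0453), BMF (0.0453) and THBS1 (0.0453) stayed called, while the adjusted p was 0.0562 for HSPA8, 0.0632 for FCGR2B, 0.0781 for STOML2, 0.0781 for CD180, 0.101 for CD300E and 0.107 for ACAT2. Glucose stood apart from all 9 other libraries for all 10 genes, against 3.46% of the genes tested. BSA stood apart from all 9 others for 6 of them, TDG among them, against 1.34% of the genes tested, 0.615% above and 0.728% below. The 10 genes were chosen for the difference between glucose and BSA in these same libraries, which favours both counts. The counts are therefore a description and no further support.

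**Figure D2:**
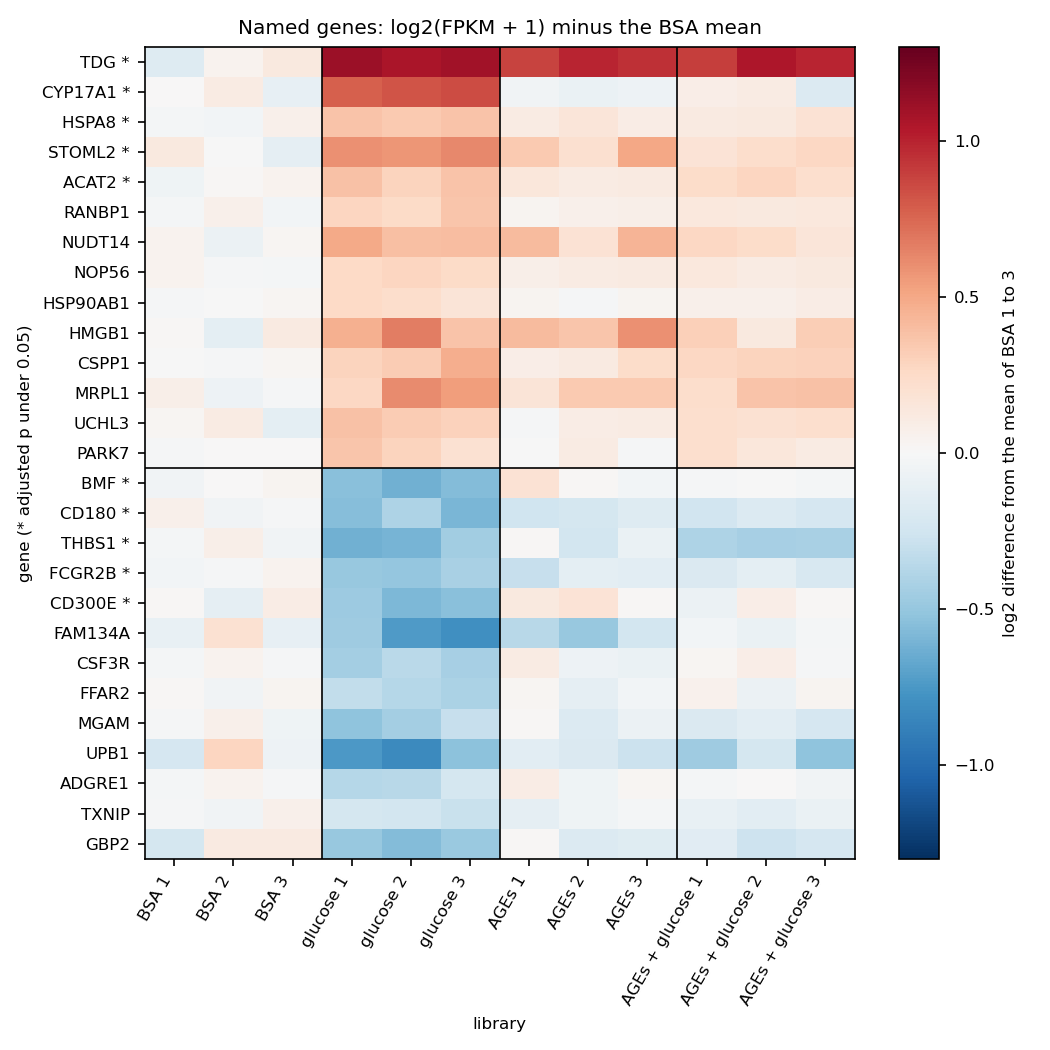
Heat map of 27 genes by 12 libraries, coloured by log2(FPKM + 1) minus the mean of the BSA libraries. An asterisk marks an adjusted p under 0.05 for glucose against BSA, and for 12 of the 13 genes on the lower side glucose 1 to 3 lay below all other libraries.

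The genes next in order were 9 on the higher side and 8 reported here on the lower side whose groups did not overlap and which did not pass the test. Higher with glucose, with adjusted p from 0.138 to 0.16, were genes that include a chaperone, a nucleolar protein and a ubiquitin hydrolase. Where a pair of means follows, BSA is given before glucose (SD, n = 3). HSP90AB1, the constitutive cytosolic HSP90, stood at 301, 301 and 308 FPKM with BSA and 364, 354 and 339.7 FPKM with glucose (log2 difference 0.22). All 3 glucose libraries were above the other 9, as they were for RANBP1, a cofactor of nuclear transport, at 19.9 ± 0.804 and 24.6 ± 1.05 FPKM. NOP56, a core protein of box C/D snoRNPs, stood at 19.7, 18.8 and 18.7 FPKM with BSA and 23, 23.4 and 22.9 FPKM with glucose, apart from the rest on both sides. UCHL3, a ubiquitin hydrolase, stood at 8.22 ± 0.743 and 10.6 ± 0.352 FPKM, and PARK7, a redox-sensitive deglycase, at 49.2 ± 0.493 and 60.1 ± 3.41 FPKM. HMGB1, a chromatin protein that acts as an alarm signal when released, stood at 34.1 ± 2.98 and 48.7 ± 5.3 FPKM, with AGEs alone as high, at 47.2 FPKM. MRPL1, of the large mitochondrial ribosomal subunit, had 4.66 ± 0.282 and 6.91 ± 0.975 FPKM, the nucleotide sugar hydrolase NUDT14 had 2.26 ± 0.143 and 3.39 ± 0.167 FPKM, and the centrosomal CSPP1 had 1.28 ± 0.0305 and 1.93 ± 0.197 FPKM.

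On the lower side the 8 genes, with adjusted p from 0.0696 to 0.138, included receptors of myeloid cells. CSF3R, the receptor for granulocyte colony-stimulating factor, stood at 17.4, 18.3 and 17.6 FPKM with BSA and 12.8, 13.8 and 12.9 FPKM with glucose (log2 difference -0.41, adjusted p = 0.0696). FFAR2, a receptor for short-chain fatty acids, stood at 35, 33.3 and 35.4 FPKM with BSA and 27.4, 26.5 and 25.7 FPKM with glucose (log2 difference -0.37, adjusted p = 0.0696). In both genes the 3 glucose libraries lay below all 9 others, and the AGEs and glucose libraries did not follow them, at 18.2 FPKM for CSF3R and 34.8 FPKM for FFAR2. ADGRE1, an adhesion receptor of eosinophils in human, stood at 36.9 ± 1.02 and 29.4 ± 1.73 FPKM, and MGAM, a maltase, at 11.6 ± 0.534 and 8.44 ± 0.737 FPKM. GBP2, an interferon-induced GTPase, stood at 1.74 ± 0.363 and 0.908 ± 0.0597 FPKM and UPB1, of pyrimidine breakdown, at 1.66 ± 0.484 and 0.624 ± 0.175 FPKM, both near the 1 FPKM floor of the gene choice. FAM134A, related to the ER-phagy receptor FAM134B, stood at 12.2 ± 1.64 and 7.33 ± 1.05 FPKM, and its log2 difference of -0.66 stood beside 0.32 in the AGEs setting. TXNIP, the last of them, is described with glucose sensing.

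Chaperones lay mostly above the BSA level in glucose, and 1 of them, HSPA8, passed the test. In the list of cytosolic HSP70, HSP90 and cochaperones, 17 of 22 measured genes lay above 0 and 5 below, with a median log2 difference of 0.11. The groups did not overlap for 8 of them higher and 1 lower, 36.4% and 4.55%, beside 7.92% and 9.03% of all genes. DNAJA1, an HSP40 partner of HSPA8, stood at 52.1, 55.6 and 56.2 FPKM with BSA and 63.7, 62.7 and 66.7 FPKM with glucose (adjusted p = 0.196), and HSPH1, an HSP110 nucleotide exchange factor, at 12.3, 12.5 and 11.7 FPKM with BSA and 14.8, 14.3 and 17.6 FPKM with glucose (adjusted p = 0.224). In each the glucose libraries were all above BSA. The summed level of the 24 list members with an entry was 797 to 868 FPKM with BSA, 951 to 991 FPKM with glucose and 844 to 893 FPKM in the other 6 libraries.

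Mitochondrial chaperones and import factors had a median of 0.20, with 16 of 18 above 0 and 0 called by limma. Of the 18, 4 had an unadjusted p under 0.05, all higher, beside 4.68% of all genes on that side. HSPD1, the chaperonin HSP60, stood at 79.2, 82.8 and 85 FPKM with BSA and 105, 95.2 and 116 FPKM with glucose (adjusted p = 0.311), and its partner HSPE1 at 22.9, 22.3 and 27.8 FPKM with BSA and 41.1, 37.5 and 29 FPKM with glucose (adjusted p = 0.407). For HSPE1 the library nearest to BSA was glucose 3. The cytosolic chaperonin CCT and prefoldin list had 12 of 14 above 0 and a median of 0.13, which was 0.04 after removal of length and GC trends and 0.21 without BSA 3. CCT2, a chaperonin subunit, stood at 28.3 ± 1.39 and 33.2 ± 0.944 FPKM (adjusted p = 0.269). In the endoplasmic reticulum list 14 of 19 lay above 0, with a median of 0.10 (0.05 without BSA 3), and HSPA5, the HSP70 of that compartment, stood at 135 ± 2.31 and 141 ± 3.78 FPKM (adjusted p = 0.713).

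Proteasome subunits lay above 0 in 28 of 31 cases, with a median of 0.12 that was 0.06 once length and GC trends were removed. None of the 31 was called by limma, and 9 had an unadjusted p under 0.05, all higher, beside 4.68% of all genes on that side. PSMB3, of the core particle, stood at 83.1, 74.4 and 78 FPKM with BSA and 108, 104 and 88.1 FPKM with glucose (adjusted p = 0.202). Its glucose libraries all lay above BSA, with glucose 3 the nearest.

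Genes of growth lay above the BSA level together. In the ribosome biogenesis list 29 of 30 genes lay above 0, with a median of 0.19, 13 genes whose groups did not overlap, all higher, beside 7.92% of all genes, and 12 with an unadjusted p under 0.05, all higher, beside 4.68%. In the AGEs setting the list did not lean this way, with 13 above 0 and 17 below. SRM, which makes spermidine, stood at 29.1, 27.4 and 29.6 FPKM with BSA and 36.6, 40.9 and 35.7 FPKM with glucose (adjusted p = 0.16). POLR1B, the second subunit of RNA polymerase I, stood at 5.74, 5.81 and 5.19 FPKM with BSA and 7.25, 6.9 and 8 FPKM with glucose (adjusted p = 0.161) and RRS1, of 60S assembly, at 17.5, 17.7 and 21.4 FPKM with BSA and 26.1, 24.5 and 23.9 FPKM with glucose (adjusted p = 0.216). For all 3, every glucose library was above every BSA library, and limma called 0 of the 30 genes.

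DNA replication genes lay above 0 in 31 of 33 cases, with a median of 0.13 and 14 non-overlapping genes, all higher, 42.4% of the list beside 7.92% of all genes. MCM4, a helicase subunit, stood at 19.4, 18.5 and 18.6 FPKM with BSA and 22.3, 22.1 and 22.4 FPKM with glucose (adjusted p = 0.229), and MCM6 at 27, 27.3 and 27.6 FPKM with BSA and 32.9, 30.00 and 34.6 FPKM with glucose (adjusted p = 0.271). In the AGEs setting the replication list leaned the other way, with 24 of 33 below 0, where 49.6% of all genes lay below 0. Around the mean of all 12 libraries the list median was 0.04 in AGEs 1, -0.04 in AGEs 2 and -0.01 in AGEs 3. With AGEs and glucose it was -0.07, -0.03 and -0.06, so AGEs 2 lay within that range. MYB, a progenitor transcription factor, stood at 9.94, 6.81 and 6.58 FPKM with BSA and 10.6, 10.8 and 11.2 FPKM with glucose. Of 11 progenitor markers, the 5 with an entry summed to 69.3 to 71.7 FPKM with BSA and 65.4 to 73.8 FPKM with glucose. The 4 measured of 20 erythroid and megakaryocyte markers, mostly TFRC, the transferrin receptor, summed to 38.2 to 58 FPKM with BSA and 60.8 to 69.3 FPKM with glucose. Their part in the growth lists was not tested.

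Aminoacyl-tRNA synthetases had 20 of 23 above 0 and a median of 0.12, which was 0.07 without glucose 3. TARS, for threonine, stood at 22.4 ± 0.922 and 26.1 ± 1.95 FPKM (adjusted p = 0.377). The mitochondrial ribosome had 28 of 36 above 0 and a median of 0.11, which was 0.03 after removal of length and GC trends and 0.07 without BSA 1. MRPL24 stood at 17.7, 16.8 and 20.5 FPKM with BSA and 25.2, 26.3 and 21.9 FPKM with glucose (adjusted p = 0.161). Translation factors had 17 of 24 above 0 and a median of 0.06, at 0.04 after removal of those trends. EIF4EBP1, the repressor of cap-dependent initiation, stood at 28.2 ± 0.956 and 34.1 ± 1.92 FPKM (adjusted p = 0.302).

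Genes of sterol synthesis lay above the BSA level as well. Of 25 measured genes of cholesterol synthesis and uptake 22 lay above 0, 15 did not overlap, all higher, 60% of the list beside 7.92% of all genes, and 1, ACAT2, was called. The median was 0.17, the same to 2 decimals without glucose 3. FDPS, whose promoter is shown above, stood at 53.9, 50.8 and 54.9 FPKM with BSA and 62.3, 63.2 and 57.6 FPKM with glucose (adjusted p = 0.333). HMGCS1, which commits acetoacetyl-CoA to the pathway, stood at 52.2, 56.6 and 58.4 FPKM with BSA and 72.8, 68.9 and 67.9 FPKM with glucose (adjusted p = 0.385), and NSDHL, a sterol dehydrogenase, at 14.2 ± 0.645 and 16.3 ± 0.477 FPKM (adjusted p = 0.354). In these genes too the glucose libraries all lay above BSA. The AGEs setting leaned the same way, with 20 of 25 above 0 and a median of 0.08. Fatty acid synthesis did not share this, with 10 of 17 above 0 and a median of 0.01 that turned to -0.02 under quantile normalization and -0.01 without glucose 2. Its gene with the smallest p was ACSL3, an acyl-CoA synthetase, at 11.2 ± 0.725 and 12.7 ± 0.835 FPKM (adjusted p = 0.58).

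**Figure D3:**
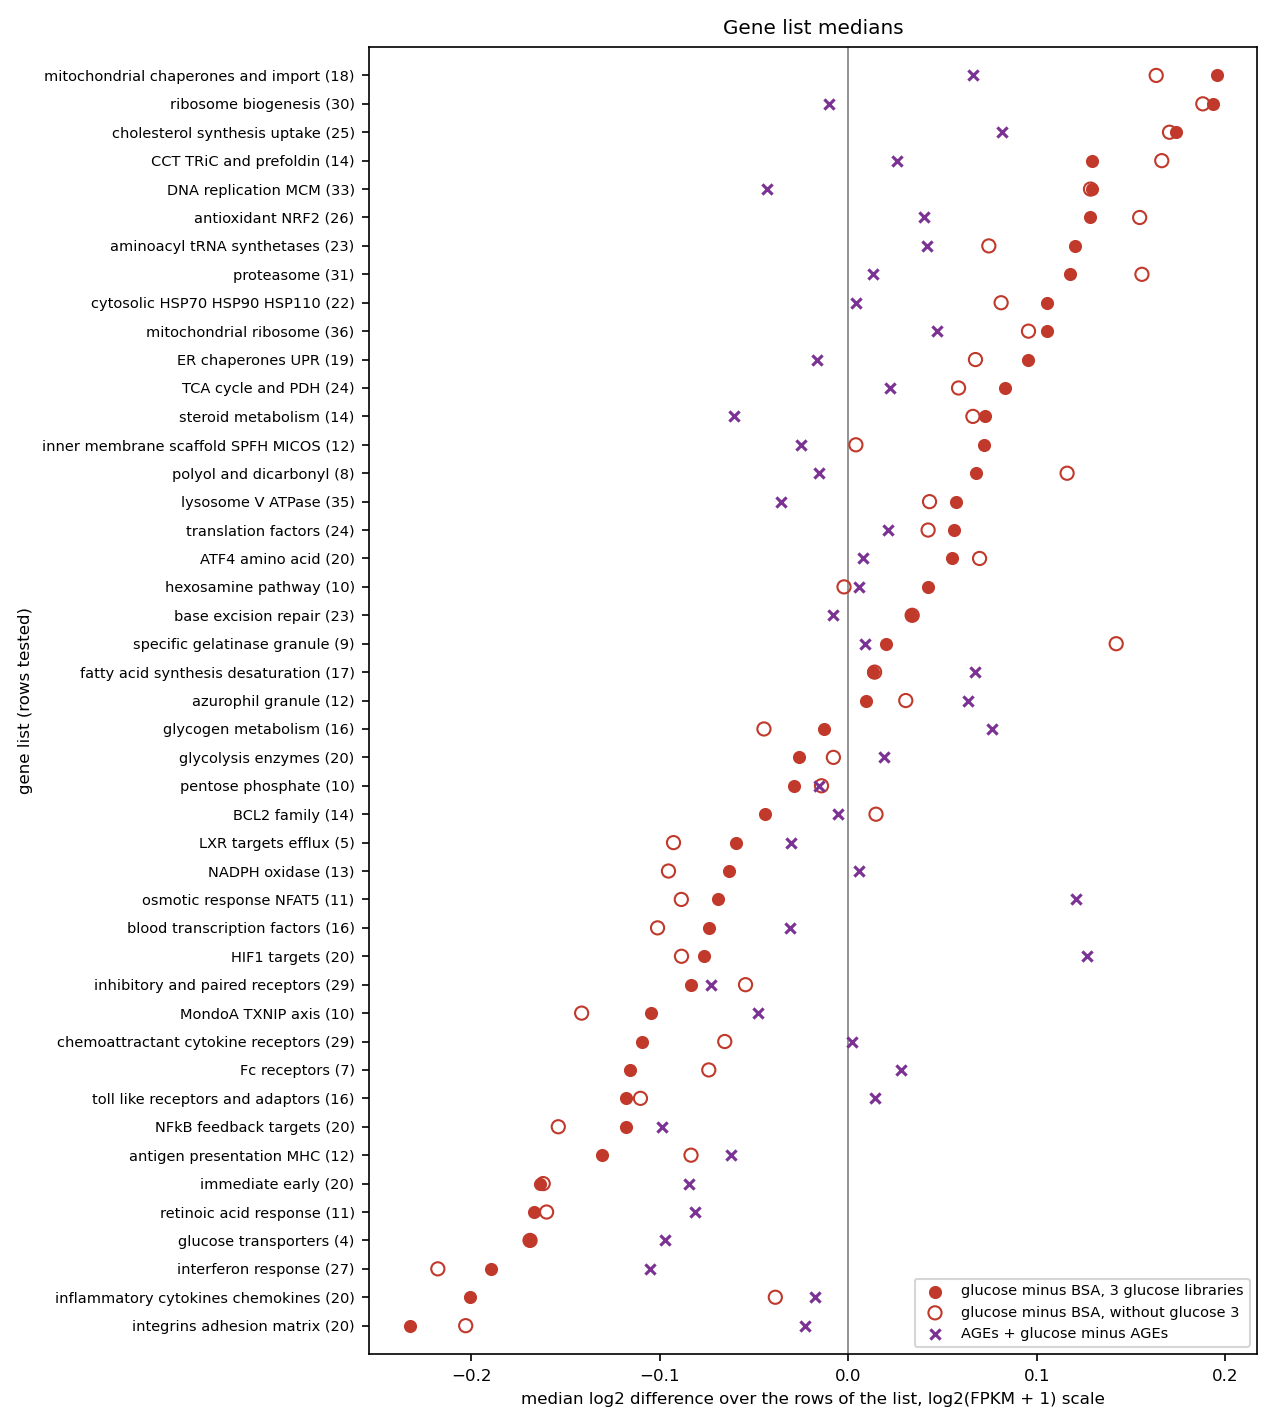
Median log2 difference of 45 gene lists, plotted for glucose minus BSA with all 3 glucose libraries, for the same without glucose 3, and for AGEs with glucose minus AGEs. For glucose minus BSA with all libraries, lists of folding, growth and sterol synthesis lie right of 0 and lists of adhesion, interferon and retinoic acid response lie left of 0, while with AGEs the lists of DNA replication (-0.04), ribosome biogenesis (-0.01) and endoplasmic reticulum chaperones (-0.02) lie left of 0. The cytokine list moves from -0.20 to -0.04 without glucose 3.

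The glucose pathway itself showed no called gene. Glycolytic enzymes had 7 of 20 above 0 and 13 below, with a median of -0.03 that was -0.01 without glucose 3. LDHB, a lactate dehydrogenase subunit, stood at 98.6, 99 and 99.6 FPKM with BSA and 120.3, 115 and 113 FPKM with glucose (adjusted p = 0.248), and LDHA at 61.5, 53 and 33.2 FPKM with BSA and 71.8, 66.8 and 65.4 FPKM with glucose (adjusted p = 0.394). BSA 3 was far below the other libraries for LDHA. The 4 measured glucose and fructose transporters of the SLC2A family all lay below 0. SLC2A3, the main neuronal and white cell transporter GLUT3, stood at 43.4, 46.1 and 45.7 FPKM with BSA and 39.3, 38.4 and 39.5 FPKM with glucose (log2 difference -0.20, adjusted p = 0.248), and SLC2A5, the fructose transporter, at 76.5, 79.3 and 75.5 FPKM with BSA and 70.9, 71.7 and 67.5 FPKM with glucose (adjusted p = 0.461). Every glucose library was below every BSA library for both. SLC2A14, a near copy of SLC2A3 between which reads could be split, stood at 0.641, 2.36 and 1.95 FPKM with BSA and 0, 0.454 and 1.64 FPKM with glucose. In the tricarboxylic acid cycle list 18 of 24 lay above 0, with FH, fumarase, at 23.1 ± 0.942 and 27 ± 0.864 FPKM and PDK3, which switches off pyruvate dehydrogenase, at 2.39 ± 0.128 and 1.71 ± 0.145 FPKM (adjusted p = 0.248 and 0.309). That list's median of 0.08 was 0.04 after removal of length and GC trends.

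TXNIP, known to rise with glucose through MondoA in many cell types, lay lower here without passing the test. It stood at 221, 217 and 234 FPKM with BSA and 192, 190.4 and 183 FPKM with glucose, a log2 difference of -0.25 ± 0.05 SE with adjusted p = 0.138. The 3 glucose libraries were the lowest of all 12, and the AGEs and glucose libraries stood at 209, 203 and 211 FPKM. ARRDC4, the other classical MondoA target, stood at 5.95, 5.59 and 5.32 FPKM with BSA and 5.07, 4.92 and 6.05 FPKM with glucose (log2 difference -0.06, adjusted p = 0.864), with overlapping groups. ARRDC3, an arrestin relative, stood at 2.78, 2.59 and 2.7 FPKM with BSA and 1.66, 1.63 and 1.84 FPKM with glucose (log2 difference -0.45, adjusted p = 0.138). Over this list 3 of 10 lay above 0 and 7 below, with a median of -0.10.

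Side routes of glucose gave small values on both sides. The pentose phosphate, glycogen and hexosamine lists had medians of -0.03, -0.01 and 0.04, and each changed sign in at least 1 other setting. RPIA, ribose 5-phosphate isomerase, stood at 50.2 ± 2.43 and 55.7 ± 2.29 FPKM, PPP1R3B, a glycogen targeting subunit, at 24.5 ± 0.725 and 21.2 ± 1.11 FPKM, and GNPDA1, of glucosamine 6-phosphate breakdown, at 15.1 ± 1.16 and 17.7 ± 0.953 FPKM. None was called, with adjusted p of 0.415, 0.342 and 0.572. In the polyol and dicarbonyl list 6 of 8 lay above 0, with AKR1A1, an aldehyde reductase, at 11.9, 11.2 and 12.6 FPKM with BSA and 13.8, 15.8 and 14.9 FPKM with glucose (adjusted p = 0.258), but the median of 0.07 was -0.03 without glucose 1 and 0.16 without glucose 2.

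The osmotic list did not lie above BSA. Of 11 measured entries 3 lay above 0 and 8 below, with a median of -0.07 that was -0.03 after removal of length and GC trends, and SLC6A8, a creatine transporter, stood at 3.34, 2.58 and 3.5 FPKM with BSA and 1.98, 2.16 and 1.84 FPKM with glucose (adjusted p = 0.248). In the AGEs setting 8 of the 11 lay above 0, with a median of 0.12. Targets of HIF1, the hypoxia factor, showed the same contrast of settings, with 18 of 20 below 0 against BSA and 17 of 20 above 0 in the AGEs setting. NDRG1, a HIF1 target, stood at 30.7, 29.99 and 29 FPKM with BSA and 24.7, 25.4 and 23.7 FPKM with glucose (adjusted p = 0.138). Antioxidant genes had 21 of 26 above 0 and a median of 0.13, at 0.07 without glucose 1, 0.08 without BSA 2 and 0.08 after removal of length and GC trends. GCLC, the rate-limiting subunit of glutathione synthesis, stood at 3.83, 5.52 and 4.27 FPKM with BSA and 5.9, 6.13 and 6.26 FPKM with glucose, and SOD1, a superoxide dismutase, at 27.4, 29.1 and 33.5 FPKM with BSA and 38.8, 38 and 33.3 FPKM with glucose (adjusted p = 0.375 and 0.383). For SOD1 glucose 3 lay within the BSA range. ATF4 targets had 13 of 20 above 0, with PSAT1, of serine synthesis, at 13.4, 13.3 and 13.8 FPKM with BSA and 18.1, 14.8 and 16.4 FPKM with glucose (adjusted p = 0.309).

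Surface and signalling genes of myeloid cells lay mostly below the BSA level. In the adhesion list 16 of 20 lay below 0, with a median of -0.23, and 1, THBS1, was called. ICAM1, the ligand of beta-2 integrins, stood at 55.2, 55.3 and 52 FPKM with BSA and 42.9, 41.3 and 43.1 FPKM with glucose (adjusted p = 0.138). ITGAX, the integrin alpha chain CD11c, stood at 13.6, 14.4 and 13.1 FPKM with BSA and 10.9, 10.8 and 11.7 FPKM with glucose (adjusted p = 0.218). ITGB2, the beta-2 chain, stood at 195, 194 and 196 FPKM with BSA and 149.9, 170.5 and 167 FPKM with glucose (adjusted p = 0.31). Glucose was below BSA in every library for all 3 genes, while for ITGB2 the AGEs and glucose libraries overlapped the glucose range. Among chemoattractant and cytokine receptors 23 of 29 lay below 0, with a median of -0.11 that was -0.07 without glucose 3. CSF1R, the receptor for macrophage colony-stimulating factor, stood at 9.7, 10.8 and 8.77 FPKM with BSA and 6.23, 6.62 and 7.12 FPKM with glucose (adjusted p = 0.138), and PTAFR, the receptor for platelet-activating factor, at 12.6, 12.6 and 12.4 FPKM with BSA and 10.6, 9.93 and 10.1 FPKM with glucose (adjusted p = 0.16). CSF1R is also 1 of the 4 tested monocyte markers. It makes up most of the monocyte marker sums with BSA, and these sums do not overlap between the groups. The 4 measured of 18 lymphoid markers, nearly all CD4, which myeloid cells also carry, summed to 115 to 118 FPKM with BSA and 105 to 109 FPKM with glucose, and the part of such cells was not tested.

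AGER, the receptor for AGEs, was near the 1 FPKM floor of the gene choice. It stood at 1.75, 1.57 and 1.62 FPKM with BSA and 1.21, 1.27 and 0.962 FPKM with glucose, a log2 difference of -0.30 ± 0.09 SE with adjusted p = 0.296. Those 3 glucose libraries were the lowest of the 12, and AGEs libraries stood at 1.71, 2.24 and 1.96 FPKM.

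Inflammatory lists lay below BSA as well, with 0 genes called by limma in any of them. Interferon response genes were below 0 in 25 of 27 cases, with a median of -0.19. Of the 27, 8 had an unadjusted p under 0.05, all lower, beside 5.34% of all genes on that side. OAS3 stood at 11, 11 and 10.1 FPKM with BSA and 7.41, 7.79 and 8.39 FPKM with glucose (adjusted p = 0.168), OAS1 at 3.8, 3.91 and 3.66 FPKM with BSA and 2.91, 2.75 and 2.83 FPKM with glucose (adjusted p = 0.201) and IFIT2 at 2.39, 2.23 and 2.03 FPKM with BSA and 1.75, 1.2 and 1.71 FPKM with glucose (adjusted p = 0.308). IFIT3, shown above, stood at 9.13, 7.84 and 8.08 FPKM with BSA and 5.74, 7.33 and 5.91 FPKM with glucose (adjusted p = 0.311). Groups did not overlap in any of these 4 genes. The AGEs setting leaned the same way, with 22 of 27 below 0 and a median of -0.11.

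Immediate early genes were below 0 in 16 of 20 cases, with a median of -0.16, 7 with an unadjusted p under 0.05 and 11 with separated groups, all lower. Over all genes 5.34% had such a p on the lower side and 9.03% were separated there. EGR2, a growth response factor of macrophages, stood at 2.11, 2.72 and 2.99 FPKM with BSA and 1.7, 1.72 and 1.42 FPKM with glucose (adjusted p = 0.138), and BTG2, an antiproliferative gene, at 65.3, 72.2 and 69.5 FPKM with BSA and 58.9, 58.4 and 58.8 FPKM with glucose (adjusted p = 0.199). IER3, which is also an NF-kB target, stood at 12.7, 13.4 and 15 FPKM with BSA and 8.58, 10.9 and 9.74 FPKM with glucose (adjusted p = 0.16). The NF-kB list had 17 of 20 below 0, a median of -0.12 and 6 with an unadjusted p under 0.05, and TNFAIP3, the feedback inhibitor A20, stood at 12.2, 12.1 and 11.1 FPKM with BSA and 9.2, 9.53 and 9.85 FPKM with glucose (adjusted p = 0.248). For these 4 genes every glucose library lay below every BSA library.

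Cytokine genes had 17 of 20 below 0 and a median of -0.20, which was -0.04 without glucose 3. IL1B stood at 9.99, 8.34 and 10.3 FPKM with BSA and 7.29, 7.45 and 5.49 FPKM with glucose (adjusted p = 0.219), with glucose 3 the lowest, and TNF at 33.2, 33.3 and 33.1 FPKM with BSA and 30.3, 28 and 26.3 FPKM with glucose (adjusted p = 0.248). Antigen presentation genes had 9 of 12 below 0 and a median of -0.13, at -0.08 without glucose 3. HLA-E, a class I molecule read by natural killer cells, stood at 218, 219 and 224 FPKM with BSA and 191, 191 and 188 FPKM with glucose (adjusted p = 0.161).

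**Figure D4:**
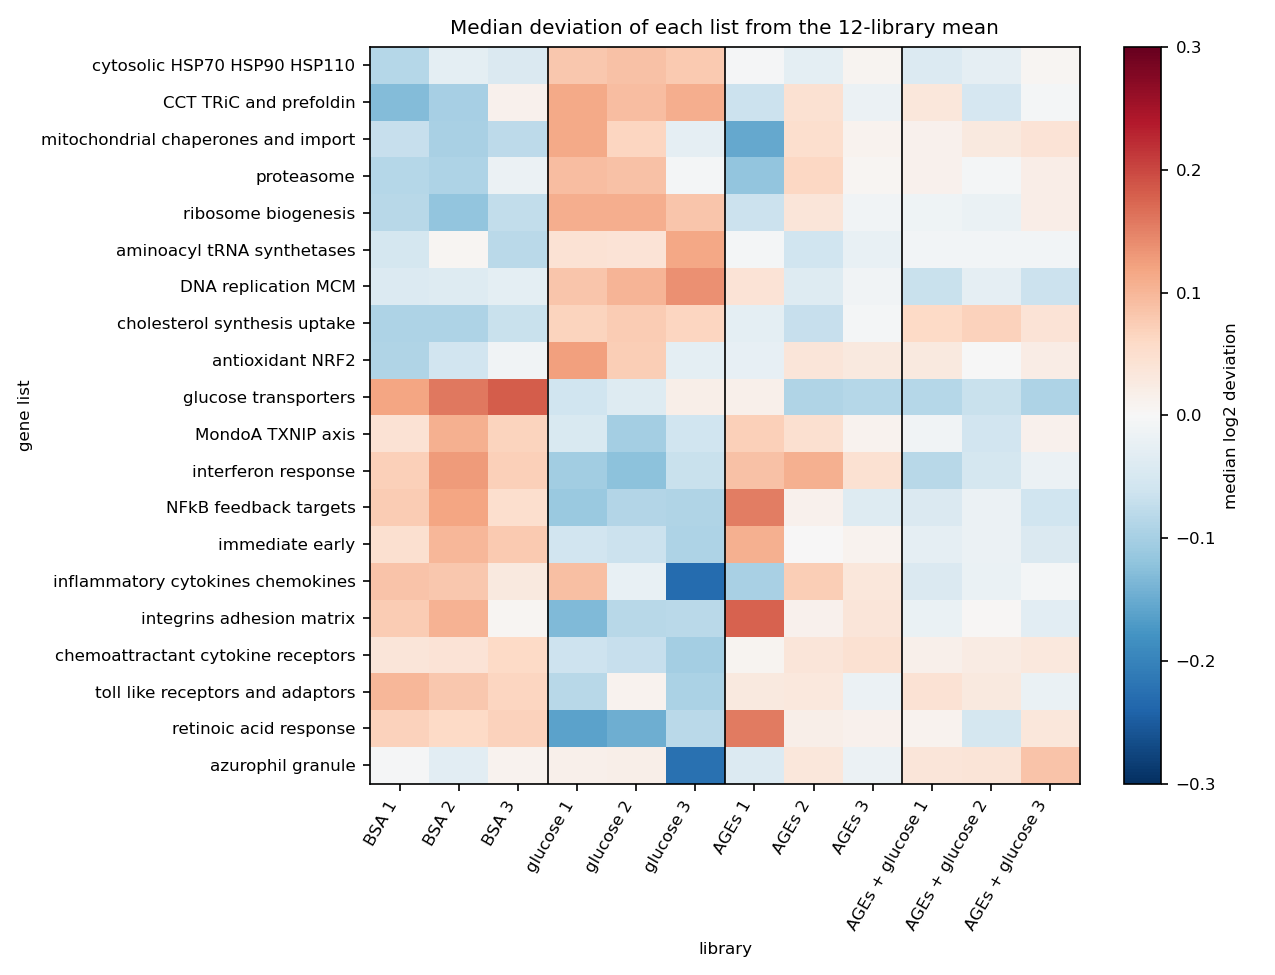
Median deviation of 20 gene lists in each of the 12 libraries, in log2 units around the mean of all libraries. Glucose 3 departs most visibly in the cytokine and azurophil granule lists, where it is the lowest of the 12 libraries.

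Neutrophil effector genes were divided. Azurophil granule genes had 6 of 12 above 0, but the 3 with an unadjusted p under 0.05 were lower, beside 5.34% of all genes on that side. MPO, the myeloperoxidase of those granules, stood at 111, 115 and 102 FPKM with BSA and 90.5, 90.1 and 92.3 FPKM with glucose, a log2 difference of -0.27 ± 0.08 SE with adjusted p = 0.309. Its 3 glucose libraries were the lowest of 12, and with AGEs and glucose it stood at 127, 124 and 127 FPKM. MMP25, a membrane-bound metalloprotease of neutrophil granules, stood at 5.34, 5.43 and 5.24 FPKM with BSA and 3.95, 3.92 and 3.85 FPKM with glucose (adjusted p = 0.161), while S100A8, a subunit of calprotectin, stood at 36.5, 33.8 and 35.9 FPKM with BSA and 47.1, 44.9 and 35.8 FPKM with glucose (adjusted p = 0.499) with glucose 3 within the BSA range. NADPH oxidase genes had 10 of 13 below 0 and a median of -0.06, at -0.10 without glucose 3, and NCF1, the p47 subunit with known pseudogenes, stood at 191 ± 5.16 and 164 ± 10.1 FPKM (adjusted p = 0.295). Lysosomal genes had 22 of 35 above 0 and a median of 0.06, at 0.02 without glucose 2 and 0.03 without BSA 1, and GAA, the acid alpha-glucosidase that breaks down glycogen, stood at 11.1 ± 0.225 and 7.67 ± 1.2 FPKM (adjusted p = 0.311).

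Genes of the retinoic acid response, which marks the induction of HL-60 cells by retinoids, were below 0 in all 11 measured cases and in both settings. The median was -0.17 against BSA and -0.08 in the AGEs setting. Against BSA 8 of the 11 had an unadjusted p under 0.05, all lower, beside 5.34% of all genes on that side, with 0 called by limma. Around the mean of all 12 libraries the list median was 0.16 in AGEs 1, 0.02 in AGEs 2 and 0.01 in AGEs 3. With AGEs and glucose it was 0.01, -0.05 and 0.03, so the AGEs setting leans on AGEs 1, the library of lowest weight. CD38, an NAD hydrolase, stood at 46.2, 50.1 and 45.1 FPKM with BSA and 39.3, 39.2 and 38.4 FPKM with glucose (adjusted p = 0.248). RARA, the retinoic acid receptor alpha, stood at 20.6, 25.5 and 22.3 FPKM with BSA and 13.9, 14.9 and 19.6 FPKM with glucose (adjusted p = 0.309), with glucose 3 the nearest to BSA. Blood transcription factors had 11 of 16 below 0, with LMO2 at 12.6 ± 0.689 and 10.6 ± 0.553 FPKM (adjusted p = 0.311).

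Weighting the libraries raised the number of calls to 43 higher, 0.441%, and 84 lower, 0.861%, 1.3% together. These 127 held all 10 genes of the equal-weight fit. Of the 127, 124 had separated groups, beside 17% of all genes. In the AGEs setting 88 of them had the same sign, as 56.9% of all genes did. The 127 were chosen for the difference between glucose and BSA in these same libraries, which favours the count of separated groups, so it is a description. Among the added genes were HSP90AB1 (adjusted p = 0.0135), DNAJA1 (0.0361), NOP56 (0.0221) and SRM (0.0455) on the higher side. CSF3R (0.0135), FFAR2 (0.0145), ICAM1 (0.0145), CSF1R (0.0135), TXNIP (0.0221), OAS3 (0.0221) and MPO (0.0262) were on the lower side. The weights were estimated from the same values, so these calls count glucose 3 and AGEs 1 at less than the other libraries and are an alternative to the equal-weight result.

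D-glucose against none was also available with AGEs in the medium, and it shares no library with glucose against BSA. Against BSA the labelled BSA changes too, while in the AGEs setting neither group is labelled with BSA. There limma called 0 genes higher, 0%, and 1 lower, 0.0103%, with 363 genes, 3.72%, at an unadjusted p under 0.05, of which 146 were higher, 1.5%, and 217 lower, 2.23%. The groups of that setting did not overlap for 391 genes higher, 4.01%, and 469 lower, 4.81%. The 1 gene was ATP2B4, a plasma membrane calcium pump, at 45.1 ± 1.82 FPKM with AGEs and 21.6 ± 0.707 FPKM with AGEs and glucose (log2 fold change -1.03 ± 0.08 SE, adjusted p = 0.000652). Against BSA it stood at 23.3 ± 2.12 and 20.8 ± 1.8 FPKM (adjusted p = 0.576), so the AGEs group alone was high.

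Across the 9751 genes the 2 sets of differences had a Pearson correlation of 0.108 and a Spearman correlation of 0.175, as a description over genes that share libraries and composition within each setting. Of the 977 genes with an unadjusted p under 0.05 against BSA 64.7% had the same sign with AGEs, beside 56.9% of all genes. Both sets of differences fell with GC content, with a Spearman correlation of -0.186 against BSA and -0.364 in the AGEs setting. The part of GC content in the shared signs was not tested. Of the 10 called genes 7 had the same sign. Those with an unadjusted p under 0.05 in limma in both settings were THBS1 (log2 difference -0.31, adjusted p = 0.984 in limma with AGEs) and ACAT2 (log2 difference 0.12, adjusted p = 0.984 in limma with AGEs).

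**Figure D5:**
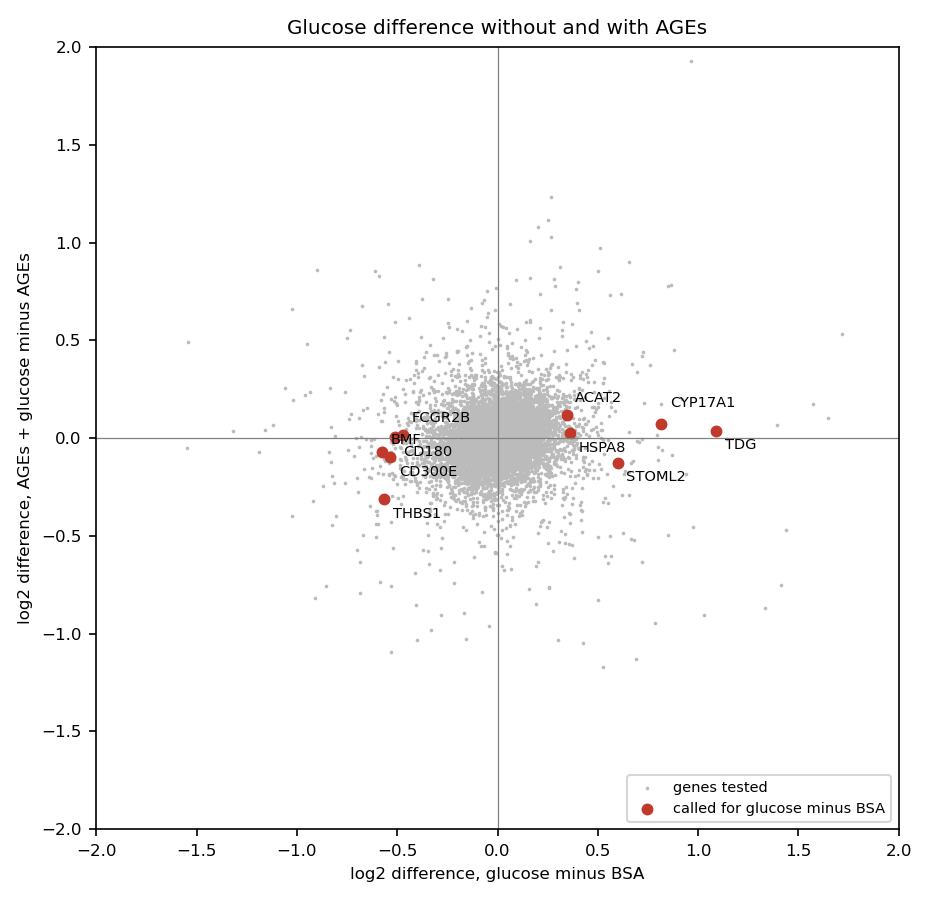
Each point is 1 of 9751 genes, with the log2 difference of glucose minus BSA on the x axis and of AGEs with glucose minus AGEs on the y axis, and the called genes labelled. TDG and CYP17A1 lie far right at 1.09 and 0.82 with y near 0, at 0.04 and 0.07, and THBS1 has the lowest y of the called genes, -0.31. Points that lie farther out did not pass the test for glucose minus BSA.

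The 2 settings differ in AGEs and in labelled BSA, which cannot be told apart, and their difference was itself tested. It was called for 1 gene, TDG, 0.0103%, at 1.05 ± 0.11 SE on the log2 scale (adjusted p = 0.0148 in limma). The 10 called genes all had an unadjusted p under 0.05 for the difference, among 477 such genes, 4.89%, with 242 of them higher, 2.48%, and 235 lower, 2.41%, but since they were chosen for the first of the 2 differences this is a description. CYP17A1 had a difference of 0.75 (adjusted p = 0.119) and BMF one of -0.50 (adjusted p = 0.306). For TDG the call was lost without AGEs 3 (adjusted p = 0.0793), without BSA 2 (0.0589), without glucose 2 (0.0688) or without AGEs and glucose 3 (0.0796).

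Gene length and GC content moved with the differences. The Spearman correlation across genes of the glucose minus BSA difference was -0.228 with transcript length and -0.186 with GC content, as a description, over the 96.8% of genes with a value. Without glucose 3 it was -0.334 with transcript length and -0.141 with GC content. Genes separated on the higher side had a median length of 2812 bases and a GC content of 45.3%, and those on the lower side 4316 bases and 52.4%, beside 3607 bases and 48.1% over all genes. After removal of both trends the median was 0.17 for ribosome biogenesis, 0.16 for cholesterol synthesis, -0.17 for interferon response and -0.20 for adhesion, close to the values without removal. Other medians shrank, from 0.13 to 0.04 for CCT and prefoldin, from 0.11 to 0.03 for the mitochondrial ribosome, from 0.12 to 0.06 for the proteasome and from 0.08 to 0.04 for the tricarboxylic acid cycle. What gives rise to the trends was not tested.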

How the data were processed

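RNA was extracted with Trizol from induced HL-60 cells and sequenced on Illumina libraries, per the labels' protocols. The authors deposited 1 table of FPKM per gene for 12 libraries, which is normalized for length and depth and keeps no read counts, so depth is unknown. Tools listed by the submitters' processing notes, with no role or order, are STAR 2.5.2b, HISAT2 2.0.5, StringTie and cutadapt, and the build is hg19. Neither annotation nor strand setting is given in the sources used. Columns were assigned to libraries by their names, and 0 other per-sample columns were present. Of 10465 entries 714 under 1 FPKM in 10 or more libraries were removed, and 19 symbols occur in 2 entries. This filter ignores groups. Over all 10465 entries, before the filter, the lowest of the highest group means was 0.5001 FPKM. A cut on group means before deposit is therefore possible and was not tested.

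A model of 4 group means was fitted to log2(FPKM + 1), pseudocount 1, with limma 3.58.1 (trend, robust, statmod 1.5.0) in R 4.3.3, two-sided, with Benjamini-Hochberg adjustment over 9751 genes and a threshold of 0.05. Errors of log2 values are SE and those of FPKM are SD (n = 3). The fit was checked on simulated data. Promoters, overlaps, length and GC content were read in Python 3.11.15, promoters from RefSeq GRCh38.p14. Length and GC content came from each gene's longest transcript.

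The members and lists were chosen with earlier results of these data known. The genes named were all called genes, the uncalled genes of smallest p with separated groups up to 14 per direction, the 1 to 4 members of smallest p in each list, and AGER, TXNIP, ARRDC4 and MPO. IFIT3, FCGR2A and ATP2B4 were added after their values were seen, and some genes that the rule names are not reported here. Alternatives were another pseudocount, filter, scaling or moderation, library weights, a replicate block, removal of length and GC trends, a fit of 2 groups and leaving out libraries. Replicate numbers showed no clear pairing of the libraries.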

Additional observations from a re-analysis of the deposited data

Results flagged for a closer look

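TDG differed between the settings by the test of the difference itself. Its change with glucose was 1.05 larger on the log2 scale against BSA than with AGEs present (adjusted p = 0.0148 in limma, 3 libraries in each of 4 groups). The 6 libraries with AGEs, at 15.3 to 17.3 FPKM, lay just below the 3 glucose libraries, at 17.5 to 18.2 FPKM. The 3 BSA libraries lay below all 9 others, at 6.86 to 8.66 FPKM. None of those 9 is labelled with BSA, so AGEs and missing BSA cannot be told apart in this difference.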

How the results depend on the processing

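Of 2098 values for 92 named genes under the alternatives 1927 kept their direction and side of the threshold, 91 lost a call, 80 gained one and 0 reversed. Of 459 list medians 77 moved by more than the spread between libraries. For glucose against BSA, genes called higher and lower were 5 and 3 with a mean FPKM of at least 5, 2 and 5 under quantile normalization (6 of the 10), 3 and 5 without trend and robust moderation, 5 and 0 with only the glucose and BSA libraries (unadjusted 466 and 550 in limma, with 2 of the 10 genes still called), 43 and 84 with library weights, and 7 and 25 with length and GC trends removed (9 of the 10). Without both glucose 3 and AGEs 1, chosen after seeing the data, they were 24 and 49, with all 10 genes among them. That setting gave 3 and 3 in the AGEs setting and 3 and 4 for the difference.

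In the AGEs setting 2 genes were lower with no filter, 2 with trends removed, and 1 was higher with library weights. The difference was called higher for 3 genes with no filter, 2 with median-ratio scaling, 3 with trends removed, and for 5 higher and 9 lower with weights. A pseudocount of 0.1 and median-ratio scaling kept all 10 calls against BSA.

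Leaving out 1 library gave 2 to 5 higher and 0 to 11 lower against BSA, 0 to 2 and 1 to 3 in the AGEs setting, and 0 to 2 and 0 to 2 for the difference. Against BSA, higher and lower calls were 4 and 2 without BSA 1, 3 and 0 without BSA 2 (unadjusted 310 and 365 in limma), 5 and 3 without BSA 3, 2 and 1 without glucose 1, 3 and 3 without glucose 2, 2 and 4 without glucose 3, 5 and 11 without AGEs 1, 4 and 3 without AGEs 2, 2 and 1 without library 1 or library 3 of AGEs and glucose, and 4 and 1 without library 2 of that group. The cause of these shifts was not tested, beyond the smaller number of libraries.

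Libraries of the same number correlated at -0.21 to 0.13 in their deviations from the group mean, so no clear pairing was seen. Libraries of different numbers were not compared, so a weak pairing cannot be told from none. With the replicate block 2 genes were called higher, TDG and CYP17A1, and 0 lower (unadjusted 415 and 448 in limma). Because no clear pairing was seen, removal of trends together with the block was not run. Depth could not be checked because FPKM keeps no counts.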
